A study of Mus musculus with 6 samples.

Results

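Cytochrome P450 enzymes are heme proteins that insert an oxygen atom into drugs, steroids, fatty acids and dietary chemicals. The genes described here are those of P450 families 1 to 4, taken as every gene whose symbol in the array's annotation begins with Cyp, a digit from 1 to 4, a letter and a number. They were 69 of the 19938 genes measured. Of these 69, 66 are protein coding in RefSeq (GRCm38.p6) and 3 are pseudogenes. Each had a single probe set with its symbol alone. Another 13 protein-coding genes of these families had no probe set of their own, and 9 of them share 1 with relatives; these were not analysed here.

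As background, most of these enzymes sit in the endoplasmic reticulum and take electrons from cytochrome P450 reductase or cytochrome b5. Families 1 to 3 are best known for the oxidation of foreign compounds and steroids, and family 4 for hydroxylation at the far end of fatty acids and eicosanoids. Several are induced by ligand-activated receptors, among them the aryl hydrocarbon receptor for Cyp1 genes, the constitutive androstane receptor for Cyp2b genes, the pregnane X receptor for Cyp3a genes and PPAR alpha for Cyp4a genes. In the gut they stand mainly in the epithelium, where swallowed compounds are first met.

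The samples were whole ileum of 6 individual mice, 1 Affymetrix mouse gene array each. All carried Villin-CreERT2, a recombinase that tamoxifen switches on and that the Villin promoter drives in intestinal epithelium. The 3 control mice had no other engineered allele, and the 3 labelled Gata6 KO also had GATA6 flox/flox alleles, so that epithelial cells could lose this zinc finger transcription factor while muscle and connective tissue could not. Both groups received tamoxifen (labelled 100 mg/ml) on 5 days from an age of 6 to 8 weeks, and ileum was taken 28 days later, at 10 to 12 weeks. Values below are the deposited log2 signals, where a step of 1 is a doubling. Differences are Gata6 KO minus control from limma, and a gene passed at a Benjamini-Hochberg adjusted p under 0.05 over all 19938 genes.

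The label was checked on Gata6 itself, with control signals of 6.31, 6.33 and 6.5 against 6.94, 6.81 and 6.86 under the KO label. It was thus higher, not lower, under that label (0.49, SE 0.08, limma adjusted p = 0.0162). The call was lost without control replicate 1 (0.0501) or Gata6 KO replicate 1 (0.0584), 2 (0.0573) or 3 (0.0623). The sources used here do not say whether the probes lie in the deleted part, so the signal may check nothing. Directions are therefore those of the arrays labelled Gata6 KO. Array medians ran from 3.33 to 3.44, and a signal below them is treated as dim, with a change of uncertain size. Control replicate 3 read 2.31 for Xist and 5.30 for the Y-linked Eif2s3y, against at least 7.39 and at most 0.615 elsewhere, so it has the signals of a male and the other arrays those of females. For Car1, a carbonic anhydrase of colon, control replicate 1 read 10.96, while control replicates 2 and 3 read 5.68 and 6.87 and the KO-labelled signals ran from 12.14 to 12.20. Calls that change without one of these arrays are given beside the P450 genes.

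The first question was which P450 genes differed between the groups 28 days after tamoxifen. In the KO-labelled ileum 3 neighbouring Cyp2c genes and 4 Cyp2d genes rose, while Cyp2u1, 2 Cyp3a genes and 3 Cyp4f genes fell. Cyp2c55 rose 18.7-fold, Cyp2d34 15.1-fold and Cyp2c65 6.86-fold, while Cyp3a25 fell 7.78-fold and Cyp2u1, Cyp4f14 and Cyp3a13 about 2-fold. The folds of Cyp2d34 and Cyp3a25 are of uncertain size, since their lower group means (3.19 and 3.27) lay below the array medians. Family 1 and the subfamilies 2a, 2b, 2j and 4a had no gene that passed.

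In counts, 7 of the 69 genes rose (10.1%) and 6 fell (8.70%), where 4.99% of all genes tested were higher and 3.25% lower. Together 13 changed, against 8.24% of all genes, and 56 did not pass. An unadjusted limma p under 0.05 was held by 25 of the 69 and by 4928 of all 19938 genes. For the other fits the count over all genes at that p was not taken. The KO-labelled arrays lay above all control arrays for 12 genes and below them for 12 (17.4% each), against 16.8% and 12.6% of all genes, so the count of separated genes is near the background for increases. The median difference over the 69 genes was -0.04, against -0.00 over all genes. Most of these genes were dim: 46 lay at or below the array medians in both groups, and 3 of those passed. Of the 23 above the medians in at least 1 group, 5 rose (21.7%), 5 fell (21.7%) and 13 did not pass. Among all 12105 genes above the medians in at least 1 group, 7.90% were higher and 4.55% lower. Centring each array on its median gave 9 higher and 5 lower. Lower genes numbered 9 when control replicate 1 was left out, 3 when control replicate 2 was, and 2 when control replicate 3 or Gata6 KO replicate 1 or 2 was, against 5 to 7 higher genes over the 6 fits that leave out 1 array. With control replicates 1 and 3 both left out, 4 genes rose (Cyp2c55, Cyp2c65, Cyp2c66 and Cyp2d34) and 0 passed as lower by limma with 1 control array left, where 13 had an unadjusted p under 0.05 and the lone control is assumed to vary like the other arrays.

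**Figure D1:**
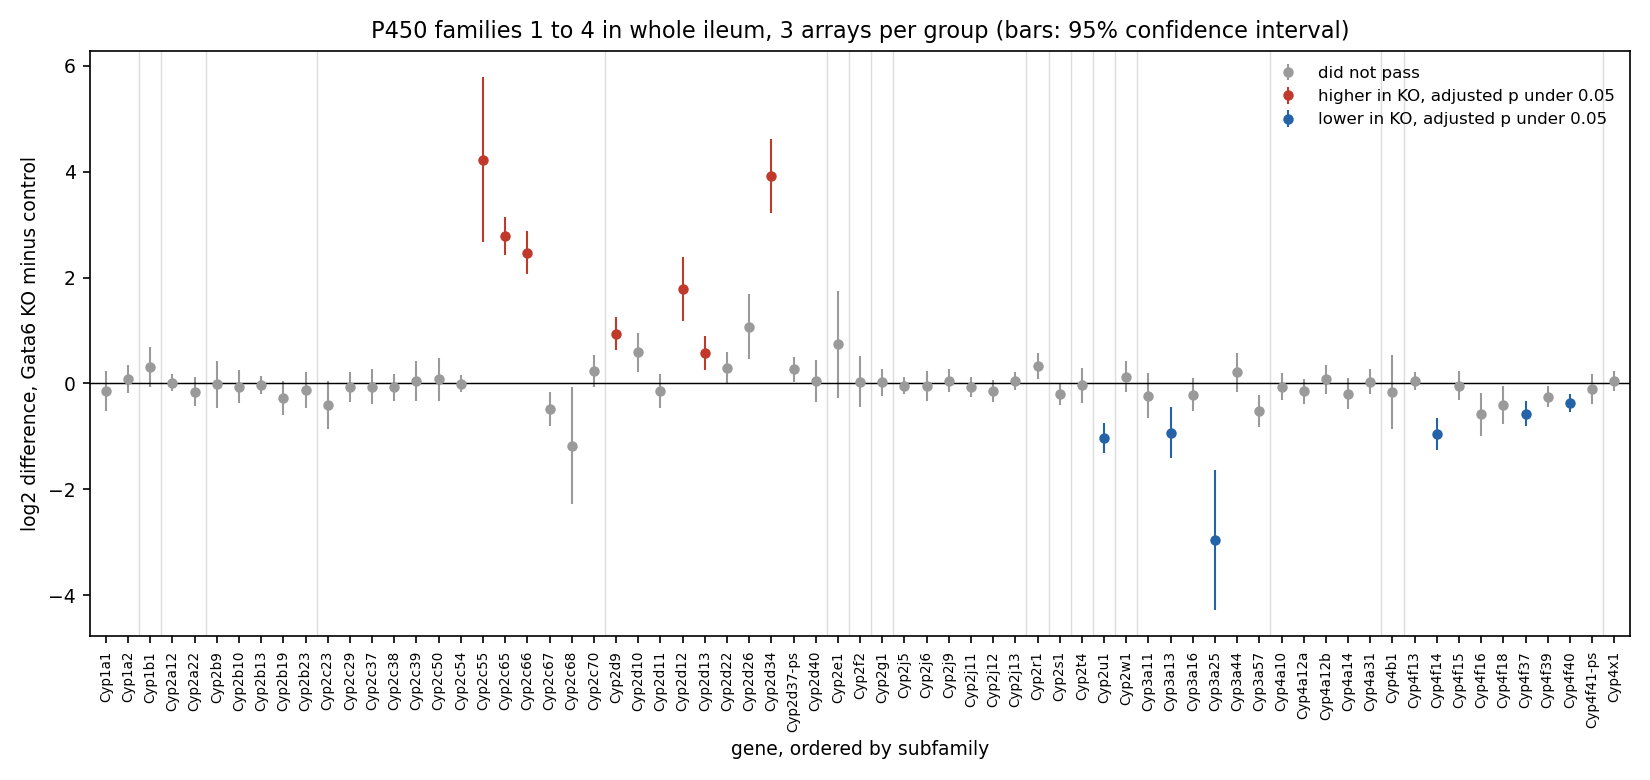
Difference in log2 signal, Gata6 KO minus control, for each of the 69 P450 genes, ordered by subfamily, with the 95% confidence interval from limma (3 arrays per group); red and blue points passed. The red points lie in subfamilies 2c and 2d, up to 4.23, and the blue points in 2u, 3a and 4f, down to -2.96, while most others lie near 0.

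The Cyp2c genes oxidise drugs and turn arachidonic acid into epoxides and hydroxylated acids, and Cyp2c55, Cyp2c65 and Cyp2c66 are known as forms of the gut. These 3 rose in the KO-labelled ileum, and the other 10 measured Cyp2c genes, none above the array medians in either group, did not pass. In RefSeq the 3 stand side by side on chromosome 19, with no other protein-coding gene between them, at the end of the Cyp2c cluster. Their promoters are shown because the 3 neighbours moved together. Each line gives the 250 bases before the RefSeq start (GRCm38.p6), 5′ to 3′. Capitals mark the letters of a GATA site (AGATAA or TGATAA), an HNF4 site (CAAAGTCCA) or a core of nuclear receptor sites (AGGTCA), on either strand. They also mark the exact letters TATAAA of the TATA box, on either strand, and no other form of it.
Cyp2c55, chr19:39006769-39007018, plus strand: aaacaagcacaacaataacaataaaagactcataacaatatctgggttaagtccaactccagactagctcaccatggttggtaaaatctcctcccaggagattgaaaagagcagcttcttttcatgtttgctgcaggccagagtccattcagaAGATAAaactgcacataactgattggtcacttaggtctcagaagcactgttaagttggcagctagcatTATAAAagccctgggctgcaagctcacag
Cyp2c65, chr19:39060756-39061005, plus strand: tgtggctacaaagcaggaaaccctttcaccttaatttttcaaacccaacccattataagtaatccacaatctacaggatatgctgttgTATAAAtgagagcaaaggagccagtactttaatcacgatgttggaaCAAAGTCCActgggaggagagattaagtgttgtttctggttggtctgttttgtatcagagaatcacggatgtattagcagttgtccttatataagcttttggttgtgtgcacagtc
Cyp2c66, chr19:39113648-39113897, plus strand: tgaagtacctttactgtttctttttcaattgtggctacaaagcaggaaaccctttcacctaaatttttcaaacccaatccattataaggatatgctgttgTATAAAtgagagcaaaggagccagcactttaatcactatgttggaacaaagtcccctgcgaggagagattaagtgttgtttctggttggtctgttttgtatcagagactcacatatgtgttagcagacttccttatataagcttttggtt

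The windows of Cyp2c65 and Cyp2c66 aligned at 74.6% identity, and that of Cyp2c55 at 51.8% and 47.6% to the other two, where windows of different subfamilies shown here gave 43.4% to 50%. Cyp2c55 holds 1 AGATAA, 97 to 92 bases before the start, and a TATAAA at 29 to 24. Cyp2c65 and Cyp2c66 hold neither GATA form, and Cyp2c65 has the HNF4 letters. The exact letters TATAAA in Cyp2c65 and Cyp2c66 lie farther from the start than in Cyp2c55, at 162 to 157 and 150 to 145 bases before it. Both windows also hold the similar letters tatataag much nearer the start. The search for TATAAA did not count these, so the windows are not shown to lack a TATA box there.

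Cyp2c65 read 6.18, 6.77 and 6.53 in controls and 9.27, 9.15 and 9.40 under the KO label. The groups were far apart and each was tight, and the difference was 2.78 (SE 0.15, limma adjusted p = 3.04e-04). It passed in each fit that left out 1 array. Cyp2c66 read 3.88, 3.52 and 3.13 in controls, around the array medians, and 5.95, 6.01 and 5.99 in KO-labelled arrays. Its 3 KO-labelled values were nearly equal, and the difference of 2.47 (SE 0.17, limma adjusted p = 7.21e-04) also passed without any 1 array.

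Cyp2c55, which makes a hydroxylated arachidonic acid and is abundant in mouse colon, had the widest spread among controls. It read 7.38, 5.08 and 4.55 there, and 9.62, 9.88 and 10.2 in the KO-labelled arrays. Control replicate 1 stood between the other controls and the KO-labelled arrays, as it did for Car1. The difference was 4.23 (SE 0.66, limma adjusted p = 0.0116), and 5.08 (limma adjusted p = 9.79e-04) without control replicate 1. The call was lost without Gata6 KO replicate 1 (0.05004), replicate 2 (0.0594) or replicate 3 (0.0529). Mean log2 signal over 19 colon markers was 5.36 in control replicate 1, against 4.70 and 4.98 in control replicates 2 and 3, and ran from 5.5 to 5.80 under the KO label; its part in the Cyp2c results was not tested. That mean includes Car1, and also Aqp8 (5.60, 2.89 and 2.84 in controls) and B3galt5 (5.12, 2.90 and 4.59), while the list's median difference was 0.05.

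Next along chromosome 19, Cyp2c29, a form abundant in liver, read 0.99 ± 0.22 in controls and 0.93 ± 0.06 under the KO label (SD, n = 3). Its difference of -0.07 had a 95% interval of -0.34 to 0.21. Further on, Cyp2c67 read 1.28 ± 0.24 and 0.79 ± 0.15 (SD, n = 3), with all KO-labelled values lower (limma adjusted p = 0.0812; 0.0440 without control replicate 1). Cyp2c68 read 1.36, 3.50 and 2.56 in controls and 1.20, 1.22 and 1.47 under the KO label, so the groups overlapped (limma adjusted p = 0.180); without control replicate 1 it was -1.74 and passed (0.0244).

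**Figure D2:**
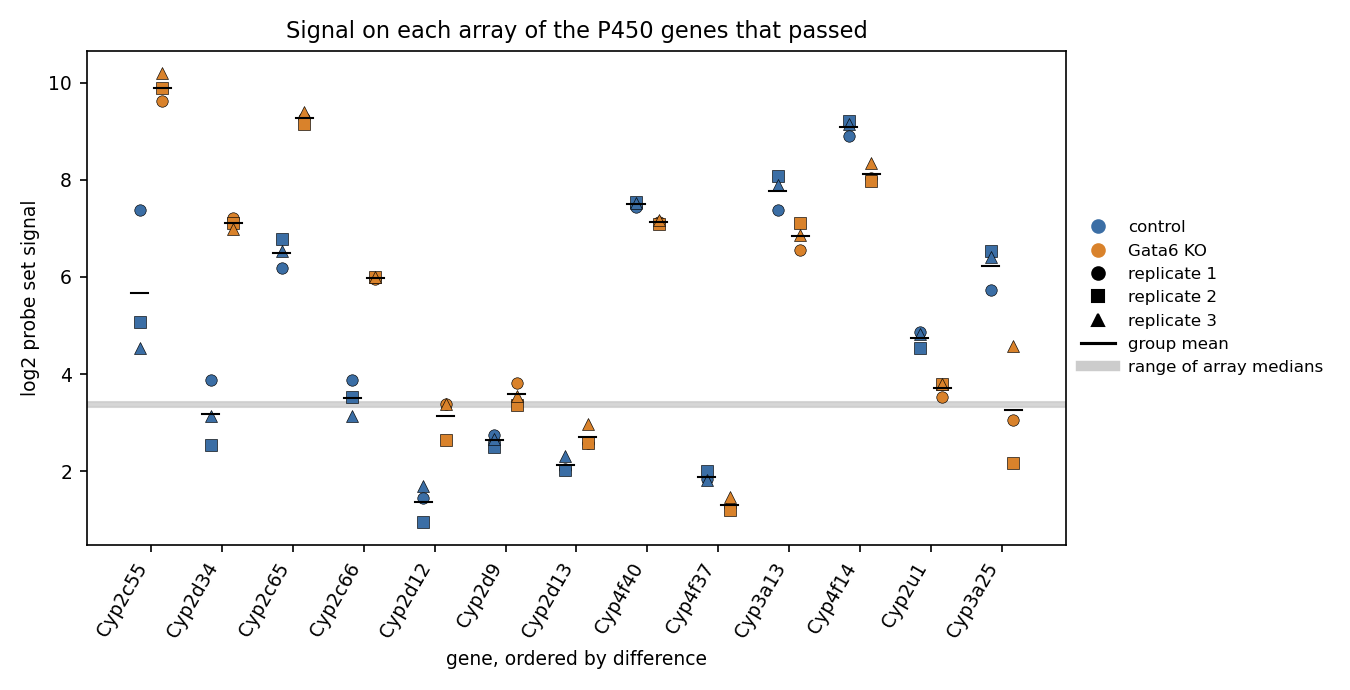
Log2 probe set signal on each array for the 13 P450 genes that passed, with controls in blue, Gata6 KO in orange, symbols for the replicate number, black lines for group means and a grey band for the array medians. The groups do not overlap for any of the 13, control replicate 1 lies apart for Cyp2c55, and Cyp2d12, Cyp2d13, Cyp2d9 and Cyp4f37 lie near or below the grey band.

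The Cyp2d subfamily, relatives of the human drug-oxidising CYP2D6, moved upward in the KO-labelled ileum: 4 of 10 measured genes passed and none fell, with a median difference of 0.58. In 8 of the 10 every KO-labelled value lay above every control value, where 16.8% of all genes did. The 4 that passed, Cyp2d9, Cyp2d12, Cyp2d34 and Cyp2d13, follow one another on chromosome 15 among the measured Cyp2d genes.

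Cyp2d34 read 3.88, 2.55 and 3.14 in controls, around and below the array medians, and 7.21, 7.11 and 6.99 in KO-labelled arrays. The difference was 3.91 (SE 0.30, limma adjusted p = 9.04e-04), it passed without any 1 array, and the control level makes its size uncertain. Cyp2d12 read 1.44, 0.95 and 1.70 against 3.39, 2.64 and 3.39. It rose by 1.78 (SE 0.26, limma adjusted p = 0.00860), with the group means still below or near the array medians. Cyp2d9 read 2.75, 2.51 and 2.66 against 3.82, 3.36 and 3.56. Known in liver as a form higher in males, it rose by 0.94 (SE 0.13, limma adjusted p = 0.00735) and by 0.95 (0.0383) without control replicate 3, the array with male signals. Cyp2d13, a transcribed pseudogene, read 2.04, 2.04 and 2.32 against 2.58, 2.58 and 2.97. Its difference of 0.58 (SE 0.14, limma adjusted p = 0.0463) lost the call without any 1 of the 6 arrays (0.0702 to 0.130).

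Among the other Cyp2d genes, Cyp2d26 read 6.36, 7.06 and 6.29 in controls and 7.55, 7.28 and 8.09 under the KO label. The 1.07 difference (SE 0.26) did not pass (limma adjusted p = 0.0520), and it passed without control replicate 2 (0.0336) and under 5 other settings. Cyp2d10 read 3.50, 3.69 and 3.30 against 4.26, 3.79 and 4.19, with a limma adjusted p of 0.0637 (0.0498 without Gata6 KO replicate 2). It also passed with arrays centred, with quantile normalization, with the filter on dim genes and with a variance trend. Cyp2d11 read 1.36 ± 0.22 and 1.21 ± 0.17, and Cyp2d40 read 3.55 ± 0.22 and 3.59 ± 0.28 (SD, n = 3); neither group pair was separated. The Cyp2d genes are close copies of each other. How far one probe set reads a relative's RNA was not tested for them, nor for the Cyp2c, Cyp3a and Cyp4f genes. Each value in these subfamilies is uncertain to that extent.

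Cyp2u1, an enzyme that hydroxylates long-chain fatty acids and the only member of its subfamily, fell. It read 4.88, 4.55 and 4.84 in controls and 3.54, 3.80 and 3.80 under the KO label. All KO-labelled values lay well below the lowest control. The difference was -1.04 (SE 0.12, limma adjusted p = 0.00375), it passed without any 1 array, and without control replicate 3 it was -1.0 (0.0251).

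The Cyp3a subfamily oxidises steroids, bile acids and a large share of drugs. Of 6 measured genes 2 fell and none rose, with a median difference of -0.38, and the other 4 lay below the array medians in both groups. Cyp3a25 read 5.74, 6.54 and 6.42 in controls and 3.06, 2.17 and 4.58 under the KO label. The KO-labelled values spread over more than 2 log2 units, with replicate 3 nearest the controls, and the mean of 3.27 lay below the array medians. It fell by 2.96 (SE 0.56, limma adjusted p = 0.0227). The call held without Gata6 KO replicate 3 (0.00557) and was lost in the fits without any 1 of the other arrays (0.0508 to 0.0943) and with a variance trend (0.0596).

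Cyp3a13, a form known from mouse intestine, read 7.37, 8.07 and 7.89 in controls and 6.57, 7.12 and 6.86 under the KO label. The groups did not overlap, though the lowest control lay near the highest KO-labelled value. The decrease of 0.93 (SE 0.21, limma adjusted p = 0.0381) passed without control replicate 1 (0.0215), and in the other 5 fits that leave out 1 array the adjusted p was 0.0719 to 0.135. Cyp3a57, in the dim range, was close to the threshold at 1.21 ± 0.20 against 0.68 ± 0.16 (SD, n = 3, limma adjusted p = 0.0504). It passed without control replicate 1 (0.0361), and with a variance trend, array weights or the replicate block. Cyp3a11, the classical target of the pregnane X receptor, read 1.93 ± 0.36 against 1.69 ± 0.15 (SD, n = 3), a difference of -0.23 with a 95% interval of -0.66 to 0.19. Several Cyp3a genes are also read by probe sets shared among them, which were not used.

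No promoter was found in the source used for Cyp2u1, which also fell, nor for Cyp2d34, Cyp2d12 and Cyp2d13, which rose. The promoters of the 2 Cyp3a genes that fell, and of Cyp4f14, stand beside those of the Cyp2c genes as the decreasing side. They have the same window and the same capitals.
Cyp3a25, chr5:146009619-146009868, minus strand: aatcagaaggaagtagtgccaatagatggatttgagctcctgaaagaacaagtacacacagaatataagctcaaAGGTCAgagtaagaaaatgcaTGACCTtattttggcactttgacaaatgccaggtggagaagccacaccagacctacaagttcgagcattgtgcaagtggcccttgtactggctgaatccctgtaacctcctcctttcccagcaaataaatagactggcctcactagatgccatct
Cyp3a13, chr5:137921620-137921869, minus strand: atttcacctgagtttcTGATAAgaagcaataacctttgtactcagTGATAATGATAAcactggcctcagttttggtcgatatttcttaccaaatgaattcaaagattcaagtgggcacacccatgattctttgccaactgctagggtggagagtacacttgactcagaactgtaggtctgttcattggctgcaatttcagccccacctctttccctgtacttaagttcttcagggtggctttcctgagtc
Cyp4f14, chr17:32917357-32917606, minus strand: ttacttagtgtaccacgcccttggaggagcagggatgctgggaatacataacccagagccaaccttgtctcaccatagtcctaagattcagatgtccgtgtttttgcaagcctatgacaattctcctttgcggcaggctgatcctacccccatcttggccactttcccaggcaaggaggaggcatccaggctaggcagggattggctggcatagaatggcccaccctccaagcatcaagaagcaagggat

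Cyp3a13 holds 3 copies of TGATAA, 234 to 229, 205 to 200 and 199 to 194 bases before the start. Cyp3a25 holds AGGTCA on both strands, at 176 to 171 and 155 to 150. In Cyp4f14 none of these letters occurs.

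Cyp4f enzymes hydroxylate leukotriene B4 and long-chain fatty acids at their far end. Of 9 measured genes 3 fell and none rose, with a median difference of -0.37, and in 6 of the 9 every KO-labelled value lay below every control, where 12.6% of all genes did. Cyp4f14, the leukotriene B4 hydroxylase, read 8.91, 9.21 and 9.14 in controls and 8.04, 7.98 and 8.36 under the KO label. Both groups were well above the array medians, and Cyp4f14 fell by 0.96 (SE 0.13, limma adjusted p = 0.00619), a call kept without any 1 array. Cyp4f40 read 7.44, 7.55 and 7.52 against 7.14, 7.09 and 7.17. Its decrease was small and its spread smaller (-0.37, SE 0.07, limma adjusted p = 0.0255). The call held without control replicate 1 (0.0433) and was lost without any of the other 5 arrays (0.0545 to 0.104), with arrays centred (0.0542) and with the replicate block (0.0676).

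Cyp4f37 lay in the dim range, at 1.84, 2.01 and 1.82 against 1.27, 1.20 and 1.48. Its difference was -0.57 (SE 0.10, limma adjusted p = 0.0178), lost without control replicate 3 (0.0560) or Gata6 KO replicates 1 (0.0686) or 2 (0.0791). Cyp4f16 read 6.62, 7.07 and 7.12 against 6.12, 6.34 and 6.61, with limma adjusted p = 0.0874. It passed at 0.0267 with the replicate block and at 0.0488 without control replicate 1. Quantile normalization, the filter on dim genes and a variance trend also made it pass. Cyp4f13 is next to Cyp4f14 in RefSeq and read 6.39, 6.4 and 6.41 against 6.38, 6.45 and 6.5. Its difference of 0.04 had a 95% interval of -0.13 to 0.21, beside -1.26 to -0.66 for Cyp4f14; the difference between these genes was not tested.

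**Figure D3:**
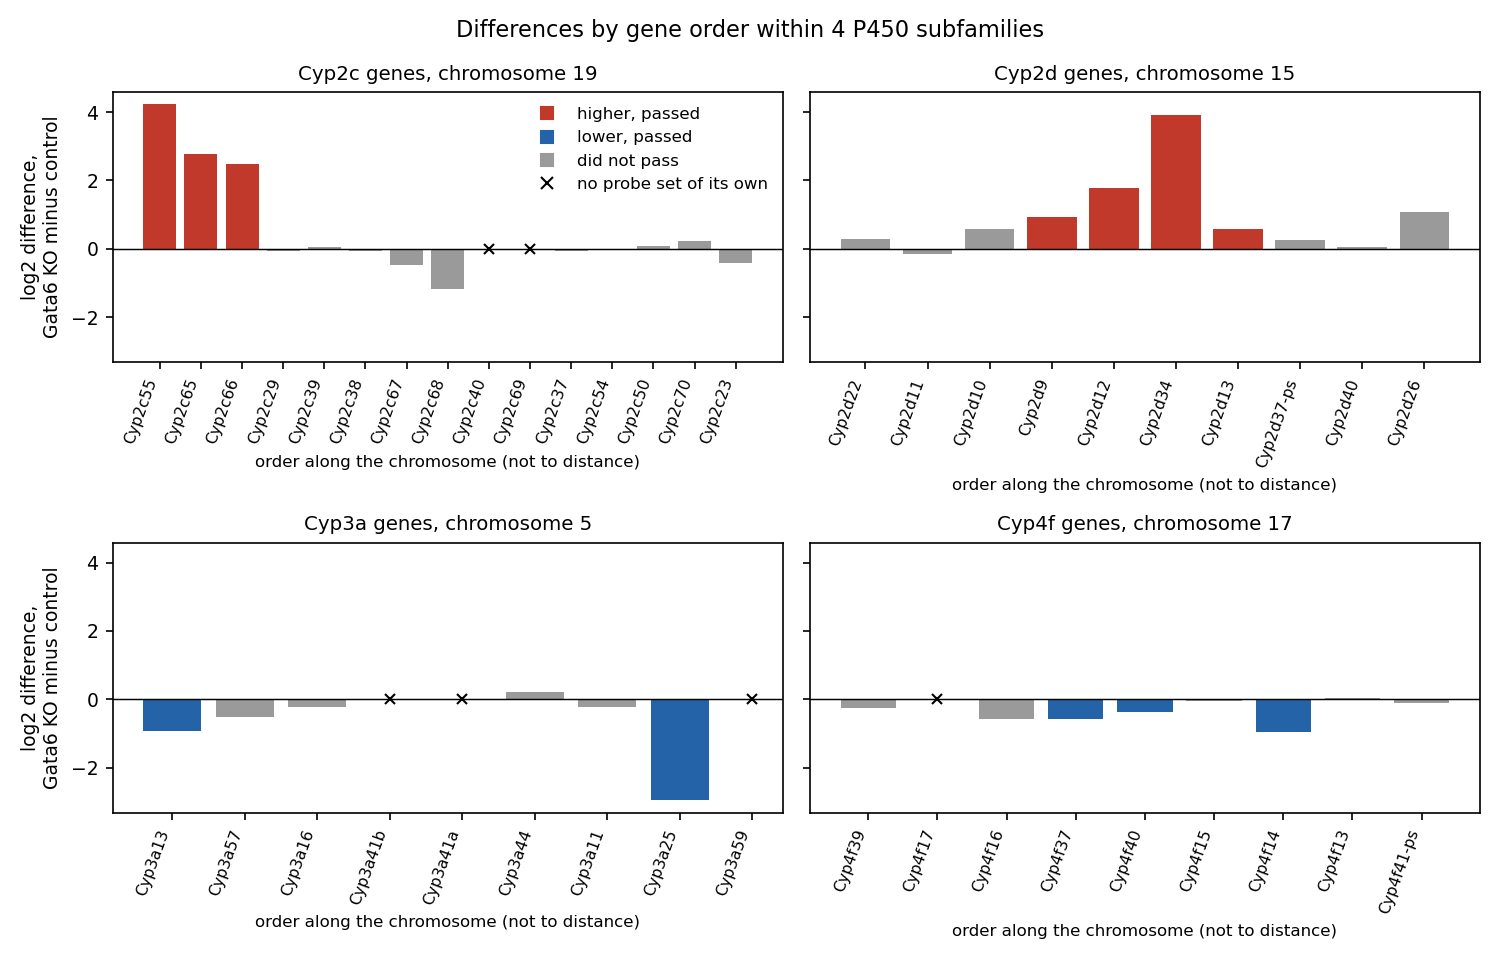
Differences in log2 signal, Gata6 KO minus control, as bars for the Cyp2c, Cyp2d, Cyp3a and Cyp4f genes in their RefSeq order on chromosomes 19, 15, 5 and 17, spaced evenly and not by distance; pseudogenes without a probe set, and Cyp4f18 on another chromosome, are left out. The 3 rising Cyp2c genes stand at one end, and the 4 rising Cyp2d genes stand together. Cyp4f37 and Cyp4f40 are neighbours that fell. Genes that did not pass lie between them and Cyp4f14 and between Cyp3a13 and Cyp3a25. Genes of other kinds are not drawn. Protein-coding ones number 34 between Cyp3a13 and Cyp2w1 and 86 between Cyp2w1 and Cyp3a57. There are 4 between Cyp4f15 and Cyp4f14 and 1 between Cyp2d9 and Cyp2d12.

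The best known inducible P450 genes did not pass. Cyp1a1, the main target of the aryl hydrocarbon receptor, read 2.03 ± 0.33 in controls and 1.89 ± 0.06 under the KO label (SD, n = 3; limma adjusted p = 0.630). For the constitutive androstane receptor, Cyp2b10 read 1.87 ± 0.19 and 1.81 ± 0.19 (SD, n = 3), and Cyp2b23, with the highest signal of its subfamily, 2.59 ± 0.26 and 2.47 ± 0.14. For PPAR alpha, Cyp4a10 read 1.33 ± 0.18 and 1.27 ± 0.07 (SD, n = 3), and none of 5 Cyp4a genes had separated groups. All of these were dim in both groups, where a change is of uncertain size and a small one could be missed. Dim signal did not prevent every call, since Cyp2d12, Cyp2d13 and Cyp4f37 were dim in both groups and passed.

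Several genes above the array medians did not pass either. Cyp2j6, an arachidonic acid epoxygenase of the intestine, read 6.64, 7.04 and 6.98 against 6.91, 6.84 and 6.74. Its difference of -0.05 had a 95% interval of -0.33 to 0.23. Cyp2s1, an epithelial form, read 6.79, 6.87 and 7.0 against 6.62, 6.70 and 6.70. The groups did not overlap, but the difference of -0.21 did not pass (limma adjusted p = 0.175). Cyp2e1, which oxidises ethanol and acetone, read 6.71, 4.83 and 5.26 in controls and 6.23, 6.5 and 6.29 under the KO label. Control replicate 1 was the highest array, the other controls the lowest, and the difference did not pass (0.74, SE 0.43, limma adjusted p = 0.339); without control replicate 1 it was 1.29 and passed (0.0111). Cyp2a12, Cyp4x1 and the remaining members not named had differences between -0.41 and 0.33 and did not pass.

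Sequence letters were counted over promoters as a description. The 250-base window was found for 53 of the 69 genes, and for 9 of the 13 that passed. A GATA form (AGATAA or TGATAA, either strand) was present in 19 of 53 (35.8%) and in 17% of 27025 RefSeq promoters, with 1 of the 4 windows of genes that rose, 2 of the 5 of genes that fell and 16 of the 44 of genes that did not pass. The HNF4 letters were in 6 of 53 (11.3%) against 0.381% of all promoters. They were in 1 of 4 that rose (Cyp2c65), 0 of 5 that fell and 5 of 44 that did not pass. TATAAA was in 21 of 53 (39.6%) against 13%, in 4 of 4 that rose, 0 of 5 that fell and 17 of 44 that did not pass. Letters were counted at any place in the window, so a TATAAA counted here need not be a TATA box. Other TATA forms, such as tatataag in Cyp2c65 and Cyp2c66, were not counted. AGGTCA was in 14 of 53 (26.4%) against 13.8%, in 0 of 4 that rose, 1 of 5 that fell and 13 of 44 that did not pass. Neighbouring P450 genes arose by duplication, so their windows are not independent, and a match is not a bound site.

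Genes that work with P450 enzymes or share their regulators come next; of the 25 that passed and were named by rule, 13 kept the call without any 1 array and 0 without control replicates 1 and 3 together. As background to the counts in these and the marker lists below, 4.99% of all genes tested were higher and 3.25% lower. Among genes above the array medians in at least 1 group these shares were 7.90% and 4.55%. No list count was tested against them. Of 9 measured genes of electron supply 1 rose, Cyb5r3, the cytochrome b5 reductase. It read 6.88, 6.92 and 6.57 against 7.39, 7.59 and 7.38 (0.66, SE 0.12, limma adjusted p = 0.0176). Of 13 genes of heme synthesis and breakdown 1 rose, Ppox, which makes protoporphyrin, by 0.52 (SE 0.10, limma adjusted p = 0.0221). Alas1, the rate-limiting step of heme synthesis and named after its value was seen, read 7.89 ± 0.20 and 8.19 ± 0.03 (SD, n = 3; limma adjusted p = 0.139). Cyb5r3 and Ppox each lost the call in some of the fits that leave out 1 array, up to 0.0782 and 0.0866. The medians were -0.00 for electron supply and 0.14 for heme genes.

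Among 20 receptors and factors that control P450 genes, 1 rose and 4 fell, with a median of -0.04. Pparg, a fatty acid receptor of colon epithelium and fat, read 6.04, 5.57 and 5.36 against 7.47, 7.82 and 7.64 and rose by 1.99 (SE 0.18, limma adjusted p = 0.00144). Nr1h3, the oxysterol receptor, fell by 0.89 (SE 0.15). The dim constitutive androstane receptor Nr1i3 fell by 0.52 (SE 0.10) and Esrra by 0.35 (SE 0.08); Hnf4g was the remaining gene that fell, by 0.54 (SE 0.12), and was named after its value was seen. Pparg passed without any 1 array, whereas Nr1h3, Nr1i3 and Esrra did not in every such fit (up to 0.0643, 0.0866 and 0.130). Nr1i2, the pregnane X receptor, read 6.70, 6.89 and 6.94 against 6.53, 6.45 and 6.56 (limma adjusted p = 0.0675). Ahr and Ppara did not pass (0.126 and 0.278); these 3 were named after their values were seen.

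Other targets of the receptors were split. Of 20 measured targets of the pregnane X and constitutive androstane receptors 10 rose (50%) and 4 fell (20%), with a median of 0.43. Over all genes tested 4.99% were higher and 3.25% lower. The export pump Abcc3 rose by 0.87 (SE 0.08), and the glutathione transferases Gstm2 by 0.78 (SE 0.08) and Gstm1 by 1.62 (SE 0.18), while the sulfotransferase Sult2b1 fell by 1.44 (SE 0.14), the glucuronosyltransferase Ugt2b36 by 1.27 (SE 0.17) to a dim 2.53 and the export pump Abcc2 by 2.94 (SE 0.24) to a dim 2.86. These 6 kept their call without any 1 array. Of 5 targets of the aryl hydrocarbon receptor the quinone reductase Nqo1 rose by 1.12 (SE 0.18) and the oxidative stress factor Nfe2l2 by 0.60 (SE 0.12). Ahrr, the repressor of that receptor, named after its value was seen, had a difference of -0.01. The calls of Nqo1 and Nfe2l2 were lost in some fits that leave out 1 array (up to 0.0586 and 0.111).

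Of 20 targets of PPAR alpha 5 rose and 1 fell, with a median of 0.26. The carnitine carrier Slc25a20 rose by 0.78 (SE 0.08), the thiolase Acaa2 by 0.74 (SE 0.13) and Acadm by 0.41 (SE 0.08), while the fatty acid binding protein Fabp2 fell by 1.76 (SE 0.32). Of these, Slc25a20 alone passed without any 1 array; the others reached 0.0635, 0.117 and 0.0912. Of 18 other eicosanoid enzymes 4 rose and 1 fell, with a median of 0.19. Pla2g4a, which frees arachidonic acid, rose by 0.69 (SE 0.07), the lipoxygenase Alox5 by 0.87 (SE 0.11) and the prostaglandin dehydrogenase Hpgd by 0.90 (SE 0.17), and Lta4h, which makes leukotriene B4, fell by 0.50 (SE 0.07). Hpgd reached 0.104 in those fits, and the other three passed in each.

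P450 genes of the families above 4 mostly did not pass. Of 19, 2 rose (10.5%) and 1 fell (5.26%), against 4.99% and 3.25% of all genes tested, with a median of -0.04. Cyp39a1, an oxysterol hydroxylase, rose by 0.65 (SE 0.08, limma adjusted p = 0.00502). Cyp20a1 rose by 0.43 (SE 0.10, limma adjusted p = 0.0434; up to 0.154 without 1 array), and Cyp51 of sterol synthesis fell by 0.73 (SE 0.11, limma adjusted p = 0.00950).

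**Figure D4:**
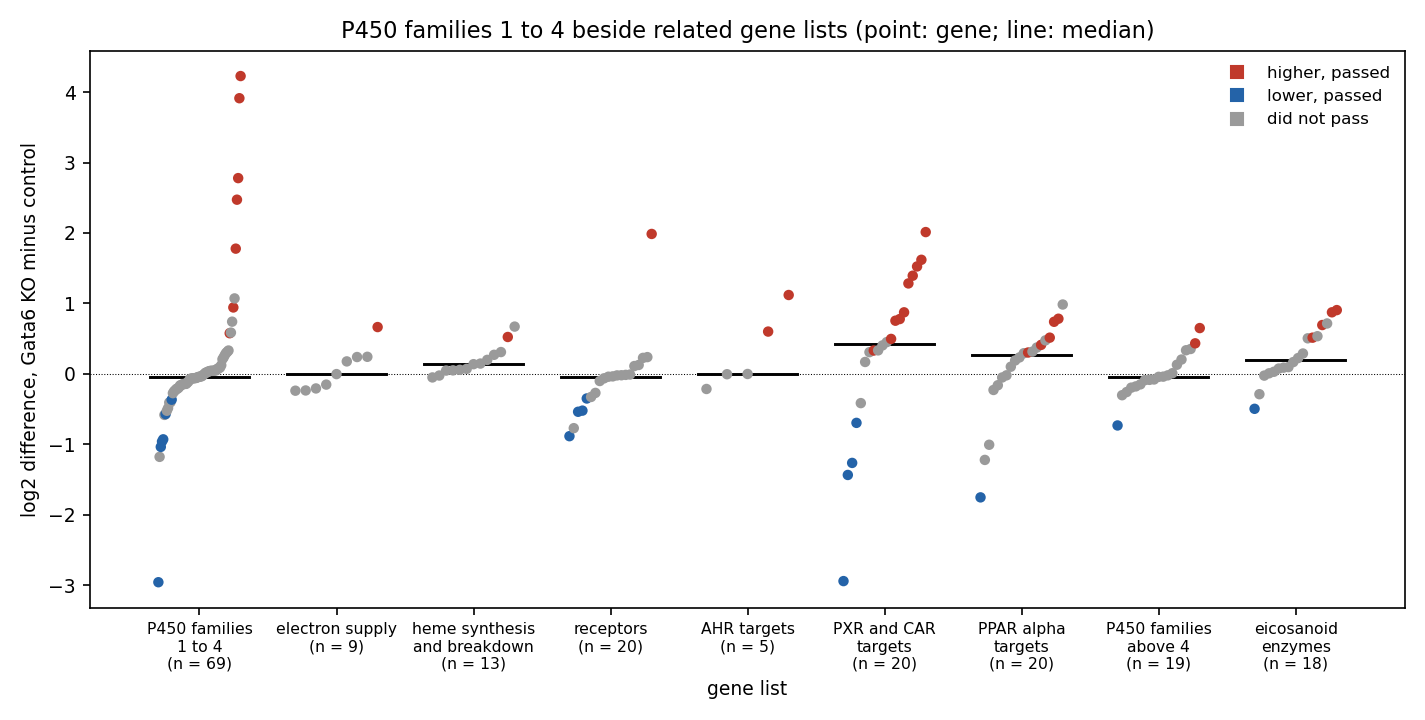
Difference in log2 signal for each measured gene (points) of P450 families 1 to 4 and of 8 related lists, with the list median as a line; AHR, PXR and CAR are the aryl hydrocarbon, pregnane X and constitutive androstane receptors. The P450 families reach from -2.96 to 4.23 around a median of -0.04, and the PXR and CAR targets have the highest median, 0.43.

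Markers of other cells moved with the groups, and their part in the P450 results was not tested. Fewer cells of a type and less RNA per cell cannot be told apart in whole tissue. Of 16 enterocyte markers 7 fell and 1 rose, with a mean log2 signal of 8.55 to 8.94 in controls and 7.40 to 7.90 under the KO label; the epithelial marker Epcam read 9.88 to 10.0 and 9.97 to 10.1. Colon markers rose in 4 and fell in 2 of 19. Means of smooth muscle markers were 7.69 to 7.86 and 7.86 to 8.25 (1 of 11 rose), and of fibroblast and pericyte markers 6.90 to 7.22 and 7.31 to 7.51 (2 of 11 rose). Mast cell and macrophage markers lay at 4.27 to 4.65 and 4.41 to 4.88 (1 of 13 rose, Kit). Endothelial markers (0 of 11 passed, 4.6 to 4.71 and 4.71 to 4.73) and lymphoid markers (0 of 12, 4.58 to 4.63 and 4.43 to 4.70) had no gene that passed by limma, with 1 in each list at an unadjusted p under 0.05. By the same unadjusted measure 9 of 11 smooth muscle and 6 of 11 fibroblast and pericyte markers differed, with median differences of 0.34 and 0.41, and the lowest smooth muscle difference was 0.19. Unadjusted counts were 11 of 16 for enterocyte, 11 of 19 for colon, 4 of 14 for hepatocyte, 3 of 8 for pancreatic and 1 of 13 for mast cell and macrophage markers. As background to all these unadjusted counts, 4928 of the 19938 genes tested had an unadjusted limma p under 0.05. Hepatocyte markers, 1 of 14 lower (Cps1, also an enterocyte gene), had means of 3.40 to 3.62 and 3.21 to 3.54, with albumin at 1.77 to 2.07 and at 2.06, 4.32 and 2.95. Pancreatic acinar markers (1 of 8 lower, Ctrb1) lay at 2.85 to 3.13 and 2.81 to 2.87. Of 4 sex-linked RNAs 0 passed by limma, and 0 at an unadjusted p under 0.05. Of 11 measured P450 genes that differ by sex in mouse liver, Cyp2d9 rose and Cyp2u1 fell, and both passed without the array with male signals.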

How the data were processed

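The authors deposited log2 probe set signals, 1 column for each mouse. The submitters' processing notes name Affymetrix Expression Console. The sources used here do not give its version, background correction or normalization, and log2 was inferred from the range of values. Of 35557 probe sets, 21789 had 1 gene symbol; the brightest per gene was kept for the 999 genes with several, giving 19938 genes, with no filter on dim ones. Scaling was left as deposited.

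Genes were fitted with limma 3.58.1 (R 4.3.3; lmFit and eBayes, Gata6 KO minus control, two-sided), adjusted by Benjamini-Hochberg over all genes. SE is moderated. In 5 simulations, 200 of 19938 genes were changed, with independent normal noise at the moderated variances. There the fit recovered 46.4% of genes changed by 0.5 and 97.2% of those changed by 1 (log2), with 6.35% false calls. No simulated array was made to stand apart from its group, so these rates may not hold for the real arrays. The number of arrays limits precision. Members and lists were chosen with earlier results of these data known; suffixes after the number (12a, -ps) were kept. Named are all members that passed, the 10 brightest, the brightest per subfamily, the 5 nearest to passing, Gata6, and up to 3 genes per direction per list; any other gene was named after its value was seen. Promoters came from RefSeq GRCm38.p6. Alternatives were centring, quantile normalization, a filter on dim genes, the dimmest probe set, ordinary variances, a variance trend, the replicate block, array weights, symbols without a suffix, and leaving out each array or control replicates 1 and 3 together.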

Additional observations from a re-analysis of the deposited data

How the results depend on the processing

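Of the 51 genes named by rule, none changed direction while called. Direction was not checked in this way for genes named after their values were seen. Leaving out 1 array gave 5 to 7 higher and 2 to 9 lower P450 genes, a median difference of -0.0603 to 0.00 and a Gata6 difference of 0.46 to 0.55 (limma adjusted p 0.0288 to 0.0623). Gata6 also lost its call with ordinary variances (0.49, 0.0695) and without control replicates 1 and 3 together (0.54, 0.130). Without eBayes 3 genes were higher and 0 lower, Cyp2c65, Cyp2c66 and Cyp2d34 being those called, with 10 lower at an unadjusted p under 0.05; without control replicates 1 and 3, 4 were higher and 0 lower, with a median of 0.0323. The median moved to 0.0143 with arrays centred, 0.0222 with quantile normalization and 0.0415 over the 22 genes kept by a filter on mean signal; the median over all genes moved with it, from -0.00 to 0.0527, 0.0185 and 0.056. Centring adds 1 constant to every difference, and the filter tests fewer genes; for quantile normalization the cause was not tested. The labels name no pairing of the mice by replicate number. Deviations of same-numbered arrays correlated at 0.04, -0.04 and 0.15, and those of differently numbered arrays at -0.12 to 0.08. With 3 arrays per group these values cannot decide whether the mice were paired. The replicate block kept 12 of 13 calls, with 7 higher and 7 lower, and over all genes 766 higher and 475 lower. Of the 13 P450 genes that passed, 7 kept the call in all 6 fits without 1 array: Cyp2c65, Cyp2c66, Cyp2d12, Cyp2d34, Cyp2d9, Cyp2u1 and Cyp4f14. Over all genes, ordinary variances called 168 higher and 106 lower, centring 1562 and 565, leaving out 1 array 320 to 806 and 277 to 597, and leaving out control replicates 1 and 3 together 25 and 11, against 995 and 648. Signals below the array medians limit what can be said of 46 of the 69 genes.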

Other observations

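The spread between mice differed from gene to gene, with 3 arrays per group and no test. Cyp2c55, Cyp2e1 and Cyp2c68 varied among controls (SD 1.51, 0.98 and 1.07) and little among KO-labelled arrays (SD 0.29, 0.14 and 0.15). In Cyp2c55 and Cyp2e1 the array that stood apart was control replicate 1, on the side of the KO-labelled arrays, and in Cyp2c68 the same array was the lowest control. Cyp3a25 went the other way, with an SD of 0.43 among controls and 1.22 among KO-labelled arrays. Cyp2c66 and Cyp2d34 had an SD of 0.03 and 0.11 among KO-labelled arrays against 0.37 and 0.67 among controls.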
